A study of Mus musculus with 2 samples.

Results

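The cluster that the depositors named IPC2, for intermediate progenitor cells, was examined in EYFP+ cells sorted from the adult mouse dentate gyrus. Its members are all cells placed in that cluster in the deposited tables, 1963 of 10804 cells, of which 1170 of 5543 came from the WT library and 793 of 5261 from the iKD library. The cluster was described across genes against the cells of the other 11 clusters, and then between genotypes within it. The data went against the name. Markers of intermediate progenitors were at or near 0, whereas all 18 microglia markers were found in most cells, so the cells are called IPC2 below only because that is the name of their cluster.

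WT mice carried NestinCreERT2, unmodified VEGF (VEGFWT/WT) and ROSA-STOP-EYFP. iKD mice, labelled KO by the depositors, carried NestinCreERT2, VEGFfloxed and ROSA-STOP-EYFP. Mice of both genotypes therefore carried the Cre and the reporter and were given Tamoxifen, for 5 d from 7 to 10 wk of age, and cells were collected 21 d after it. CreERT2 was driven by the Nestin promoter, so EYFP should mark cells in which that promoter had been active, and their descendants. The dentate gyri of 5 littermates of each genotype, males and females combined, were pooled, dissociated mechanically, sorted for EYFP and loaded as 1 library of 10x droplets per genotype. With 1 library per genotype there was no replicate check, no test between genotypes was possible and no p-value is given. Intervals are 95% exact intervals for counted molecules or cells and cover counting error only.

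In the adult dentate gyrus, intermediate progenitors arise from neural stem cells, divide and give rise to neuroblasts, and they are recognised by transcription factors such as Eomes and Neurog2. Microglia, the resident macrophages of the brain, are recognised by receptors such as Cx3cr1 and P2ry12 and by the complement subunits C1qa, C1qb and C1qc. Glucocorticoids act through the receptor Nr3c1, which binds DNA and raises the transcription of genes such as Fkbp5, a co-chaperone that feeds back on the receptor, and Tsc22d3, which encodes the leucine zipper protein GILZ. Immediate early genes such as Fos and Fosb, subunits of the transcription factor AP-1, are induced within minutes by many stimuli, among them tissue dissociation.

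A unique molecular identifier (UMI) marks 1 captured RNA molecule, and the UMI counts of each cell were recovered from the deposited values. Each cell's count of a gene was scaled to 10000 UMIs, and the mean over the cells of a group is called the level of the gene. Genes were compared where the level was 0.5 or more on the higher side. A gene is called past the fold limit where its log2 ratio exceeded 0.32 in either direction, which is a rule of size and no test. IPC2 cells held a median of 8291.5 UMIs in WT and 7244 in iKD, and 15651585 UMIs in all. Over the whole series the medians were 8051 and 7080. From 1205 to 3996 genes were detected in an IPC2 cell, and 13 of the 1963 cells had under 2000 genes. The libraries shared 9 cell barcodes, and no barcode was held by an IPC2 cell of both.

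IPC2 cells carried the microglia markers at high levels. The 18 markers were found in a median of 99.97% of IPC2 cells, from 89.9% for the transcription factor Sall1 to 100% for several others. Summed over the list, their level was 497.7 in WT and 497.7 in iKD IPC2 cells, against 499.7 in the other 11 clusters, and no marker was past the fold limit between IPC2 and the others. The level of P2ry12 was 29.7 both in IPC2 and elsewhere. Free RNA in droplet suspensions gives some UMIs in every cell. In the 134 cells of the cluster named Astrocytes, in which all 8 choroid plexus markers were found in most cells, the microglia markers were found in a median of 37.7% of cells, with a median of 7722 UMIs per cell against 7859 in IPC2.

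The markers that the name calls for had no UMIs or were found in very few cells. Of the 10 intermediate progenitor markers, 6 had 0 UMIs in all 1963 IPC2 cells, among them Eomes and Neurog2, and the other 4 were found in at most 0.306% of cells. A count of 0 allows up to 3 UMIs in the cluster. The 9 neural stem cell markers were found in at most 1.83% of cells and the 8 neuroblast markers in at most 0.306%. Genes of DNA synthesis and mitosis were also sparse. The 18 genes of S and G2/M phase were found in a median of 0.535% of cells, and Mki67, present in dividing cells, in 0.204%. Pcna, the sliding clamp of DNA polymerase, was the exception at 35.7%, a share close to the 37.3% in the cluster named Astrocytes.

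Few genes from the lists of other cell types were common in IPC2. Border macrophage markers were found in at most 4.89% of cells, the highest being Mrc1, and markers of monocytes, neutrophils and lymphocytes in at most 1.94%. Among 7 astrocyte markers, Slc1a3, a glutamate transporter, was found in 89.6% of IPC2 cells, against 18.7% of cells in the cluster named Astrocytes. It was also found in 79.0% of IPC1, 81.2% of eNB and 81.0% of aNSCs cells, so it was not particular to IPC2. The other 6 astrocyte markers had a far lower share in IPC2, as seen in the plot of marker genes. Ttr, the thyroid hormone carrier made by choroid plexus, was found in 46.5% of IPC2 cells and 55.2% of cells in the other 11 clusters. The share in IPC2 was 10.4% in WT and 99.7% in iKD.

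**Figure D1:**
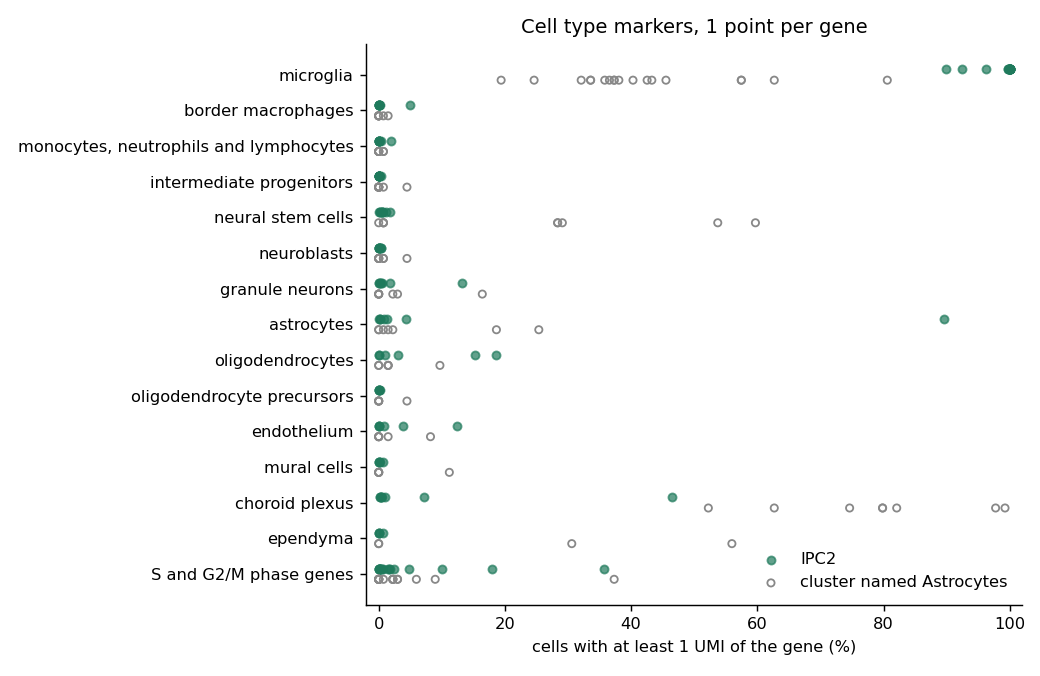
Share of cells with at least 1 UMI of each marker gene, in IPC2 (filled points, 1963 cells) and in the cluster named Astrocytes (open points, 134 cells), with 1 row per marker list. The 18 microglia markers lie between 89.9% and 100% in IPC2, and the 10 intermediate progenitor markers lie at or below 0.306%.

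The cluster was made up mainly of cells of male mice. Cells were scored by Xist, the RNA that silences an X chromosome in females, and by the Y-linked genes Ddx3y, Eif2s3y, Uty and Kdm5d. A cell with UMIs of Xist alone was scored female, and a cell with UMIs of Y-linked genes alone was scored male. In WT, 1067 of 1170 IPC2 cells were male-scored, 9 female-scored, 35 had UMIs of both and 59 of neither. In iKD, 616 of 793 were male-scored, 116 female-scored, 11 had both and 50 neither. Female-scored cells thus took 0.769% (0.352 to 1.46) of WT and 14.6% (12.2 to 17.3) of iKD IPC2 cells. Among the whole WT library, by contrast, 57.1% of cells were female-scored and 34.9% male-scored.

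Counted the other way, IPC2 took 55.2% (53.0 to 57.5) of all male-scored cells in WT and 55.1% (52.2 to 58.1) in iKD. It took 0.284% (0.130 to 0.539) of female-scored cells in WT and 3.18% (2.63 to 3.80) in iKD. These shares describe the cluster and are no test, because the sex-linked genes were among the genes clustered. Cells with both kinds of UMIs, as droplets with cells of both sexes would have, had a median of 9214 UMIs, against 7924 in male-scored cells. Since the sexes differ so much between IPC2 and the rest, the main comparisons below are also given within male-scored cells, of which each library held at least 501 inside and outside IPC2.

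**Figure D2:**
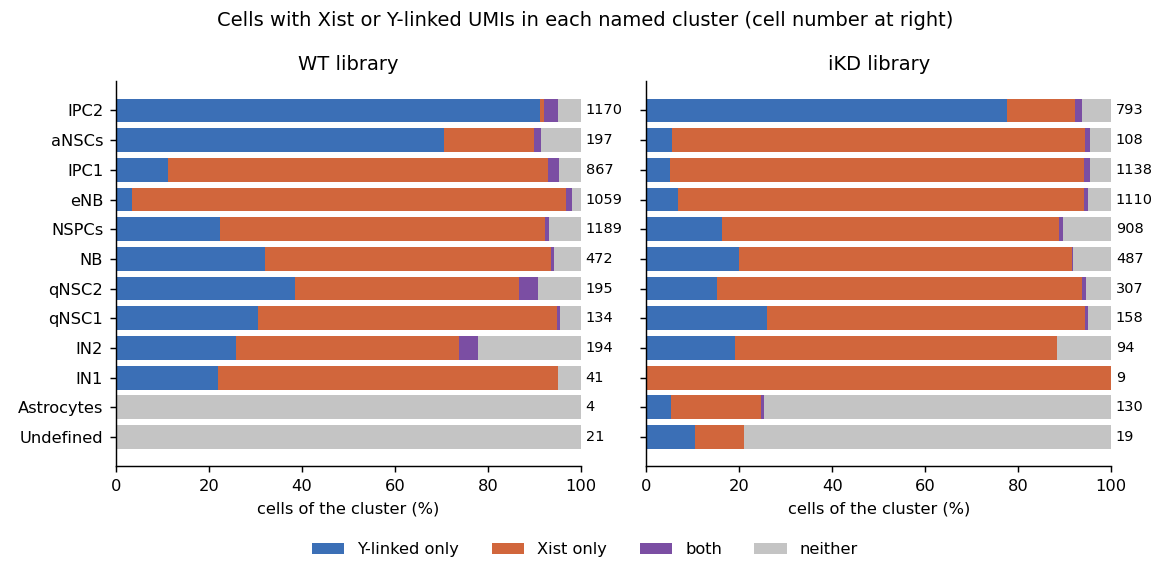
Share of cells with UMIs of Y-linked genes only, Xist only, both or neither in each of the 12 clusters, for the WT library (left) and the iKD library (right), with the number of cells at the right of each bar. IPC2 is mostly Y-linked in both libraries (1067 of 1170 and 616 of 793 cells), whereas IPC1 and eNB are mostly Xist.

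Against the other 11 clusters, IPC2 had more RNA of Y-linked genes, Ddit4 and Fkbp5, and less of Xist, Ccl4 and Apoe. Of the 3950 genes compared, 64 (1.62%) were higher in IPC2 and 86 (2.18%) lower, past the fold limit. The clusters were made from these same genes, so the counts are a description. The median log2 ratio over the 3950 genes was 0.01. The 3 highest ratios were those of Ddx3y (log2 ratio 2.67), Uty (2.66) and Eif2s3y (2.63), and the lowest was that of Xist (−3.50). The next highest were Ddit4 (1.10), which encodes REDD1, an inhibitor of mTORC1 signalling, and Slc2a3 (0.92), a glucose transporter. Fkbp5 (0.82), Tsc22d3 (0.75) and Kitl (0.71), the ligand of the receptor Kit, followed. Of 16 glucocorticoid response genes past the level, 5 were higher past the fold limit and 1 lower, with a median of 0.25.

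Within male-scored cells, 62 of 3953 genes (1.57%) were higher in IPC2 and 64 (1.62%) lower, past the fold limit. Klf4, a zinc finger transcription factor among the immediate early genes, was higher by a log2 ratio of 0.66, with levels of 3.80 inside and 2.40 outside. Ddit4 was still higher by 0.58, Kitl by 0.50 and Fosb by 0.54, but the ratio of Fkbp5 was 0.25 and that of Tsc22d3 0.28, both short of the fold limit. Of the 16 glucocorticoid response genes, 1 was higher past the fold limit and 1 lower, with a median of 0.21. Of 15 immediate early and AP-1 genes past the level, 7 were higher past the fold limit and none lower, with a median of 0.32. With all cells compared, 2 of the 15 were higher and none lower, with a median of 0.15, where 1.62% of all genes were higher.

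Across the 12 clusters, the level of Fkbp5 was 9.68 (9.08 to 10.3) in IN2, 7.36 (7.22 to 7.49) in IPC2, 5.61 (5.32 to 5.91) in aNSCs and 5.04 (4.87 to 5.21) in NB. It was 4.09 in IPC1, 3.97 in eNB and 0.584 in the cluster named Astrocytes. IPC2 was the second highest, and its counting interval overlapped neither neighbour in the order. These levels pool libraries and sexes, whose make-up differed between clusters and which the intervals do not cover. Within IPC2 alone, the level of Fkbp5 was 9.85 in WT and 3.67 in iKD. Ddit4 was highest in IPC2, at 1.80 (1.74 to 1.87), followed by 1.16 (1.03 to 1.31) in aNSCs. Ccnd3, the D-type cyclin that binds Cdk4 and Cdk6, was at 17.6 in IN2 and 9.09 in IPC2. Fosb was at 7.64 in eNB and 4.86 (4.75 to 4.97) in IPC2, and IN2 (4.82, 4.41 to 5.27) and NSPCs (4.69, 4.58 to 4.80) did not differ from IPC2 beyond their intervals. None of Fkbp5, Ccnd3 and Fosb, which were taken here as marks of IPC2, therefore singled it out. The study named Ccnd3 and Fosb for its IPC and neuroblast clusters in general.

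Over the 12 clusters the genes whose log2 levels ran most like those of Fkbp5 were Rbm26 (Pearson r = 0.991), Aff1 (0.989), Mlxip (0.987), Ikzf1 (0.984) and Zfp652 (0.984). Aff1 encodes a scaffold of transcription elongation complexes, Mlxip a glucose-responsive transcription factor and Ikzf1 a lymphoid and myeloid transcription factor. The 12 points come from the same 2 libraries, so the correlations are descriptive. Fkbp5 was at 0.584 in Astrocytes and 0.692 in Undefined, against 3.13 to 9.68 in the other clusters, and this gap weighs in r. Between genotypes in IPC2 the 5 genes had log2 ratios from −0.68 (Mlxip) to −0.09 (Rbm26), against −1.42 for Fkbp5. By the levels of 3830 genes, the clusters most like IPC2 were IPC1 (r = 0.988), eNB (0.988) and aNSCs (0.976).

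Some genes raised in microglia near plaques or lesions were lower in IPC2. Of this disease-associated list, 9 of 16 measured genes passed the level, with a median log2 ratio of −0.18 against the other clusters, and 3 were lower past the fold limit and none higher, where 2.18% of all genes were lower. Within male-scored cells the median was −0.31 and 4 of 9 were lower past the fold limit, where 1.62% of all genes were lower. Apoe, the lipid carrier, had a level of 1.97 (1.91 to 2.04) in IPC2, the second lowest of the 12 clusters, and 4.81 over the others (log2 ratio −1.28). Lyz2, lysozyme, had a ratio of −0.79 and the tetraspanin Cd63 −0.51. Of 7 chemokine and cytokine genes past the level, 3 were lower past the fold limit and none higher. Within male-scored cells also 3 of 7 were lower, against the same shares of all genes. Ccl4 had a ratio of −1.31, Ccl3 of −0.999 and Ccl12 of −0.34, all ligands of chemokine receptors on leukocytes. The level over the other clusters rested in part on 1 small cluster, since Ccl4 was at 26.7 and Ccl3 at 9.42 in the 292 cells of qNSC1. In the order of the 12 clusters IPC2, at 0.878 for Ccl4 and 0.532 for Ccl3, ranked 9 and 7.

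For Apoe and Ccl4 the lower levels were also found within each library and sex. For Apoe the log2 ratio of IPC2 over the other clusters was −1.56 in WT male-scored cells, −1.22 in iKD male-scored cells and −1.92 in iKD female-scored cells. For Ccl4 the ratios were −1.45, −2.19 and −2.65. In the 9 WT female-scored cells they were −3.69 and −3.47, from 2 UMIs of Apoe and 1 of Ccl4.

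Interferon-stimulated genes were sparse in IPC2, where the 11 measured genes were found in a median of 1.73% of cells. Within male-scored cells 4 of them passed the level, and all 4 were lower past the fold limit in IPC2, where 1.62% of all genes were. Only Bst2 reached the level inside IPC2. The others passed through the cells outside it, so they could only be lower in IPC2 and their direction is no result. The ratios included −3.82 for Ifitm3, −3.10 for Isg15 and −1.12 for Bst2. The level of Bst2 was 7.56 in aNSCs, of whose 197 WT cells 139 were male-scored, and 0.827 in IPC2, which ranked 9 of 12 clusters. Its ratio was −1.42 in WT male-scored, −0.41 in iKD male-scored and −0.17 (−0.51 to 0.15) in iKD female-scored cells. Among MHC genes, 1 of 3 was lower past the fold limit, H2-D1 at −0.38, where 2.18% of all genes were lower. All 16 cytosolic ribosomal protein genes had ratios below 0, from −0.21 to −0.09. Their median was −0.14, and −0.20 within male-scored cells. Of 12 glycolytic enzyme genes, 5 were lower past the fold limit, against the same 2.18%, with Gapdh at −0.40. The summed level of the glycolytic list was 110 in the cluster named Astrocytes, 17.2 over all 11 other clusters and 14.1 in IPC2. Within IPC2 11 of the genes passed the level, so not all 12 passed by their level there. Within male-scored cells none of the 11 glycolytic genes past the level was past the fold limit.

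The question addressed next was what differed in these cells between mice with and without the floxed VEGF allele. Among IPC2 cells, 8 of 16 glucocorticoid response genes were lower in iKD than in WT past the fold limit, and the AP-1 genes Fosb and Fos were higher. Of the 3958 genes compared, 61 (1.54%) were higher in iKD and 96 (2.43%) lower, past the fold limit, and the median log2 ratio was 0.01. Within male-scored cells 69 of 3950 (1.75%) were higher and 104 (2.63%) lower. The VEGF gene itself could not serve as a check. Vegfa had 12 UMIs in WT and 9 in iKD IPC2 cells, levels of 0.011 and 0.013, and its ratio of 0.17 had an interval of −1.26 to 1.54. Of its receptors, Flt1 had 15 UMIs and Kdr 80 in both libraries together, and the co-receptor Nrp1, at 1.42 in WT and 1.44 in iKD, had a ratio of 0.02.

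**Figure D3:**
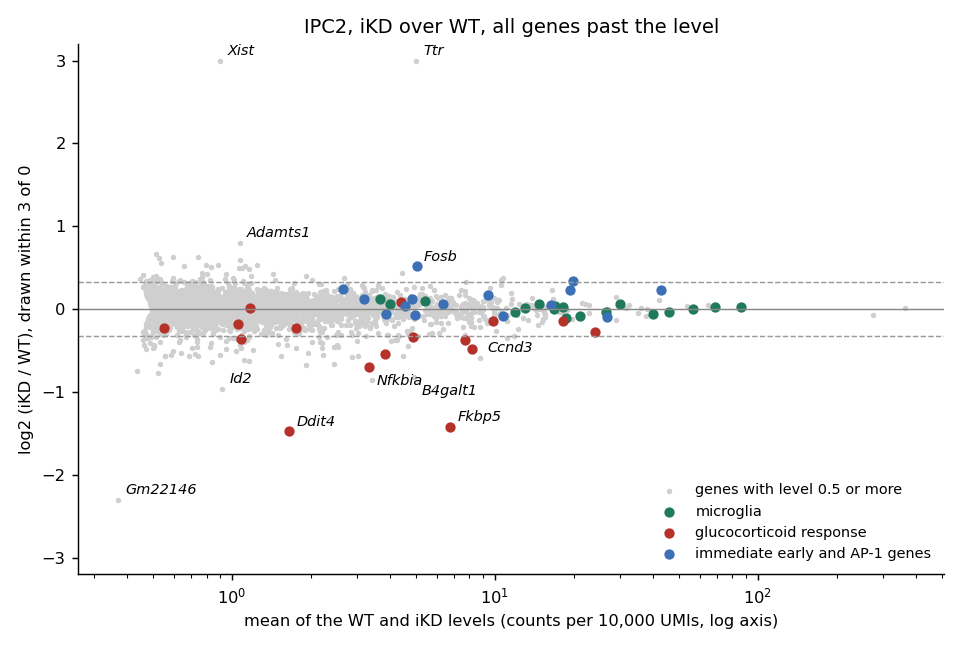
Log2 ratio of the iKD over the WT level in IPC2 against the mean of both levels, for the 3958 genes past the level, with 3 gene lists in colour and dashed lines at the fold limit. Xist (3.64) and Ttr (6.02) are drawn at 3. The microglia markers lie near 0, and Ddit4 (−1.48) and Fkbp5 (−1.42) lie far below.

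Of 22 glucocorticoid response genes, 16 passed the level. Their median log2 ratio was −0.31, and 14 of the 16 were below 0. In iKD 8 were lower past the fold limit and none higher, where 2.43% of all genes were lower and 1.54% higher. The list was chosen with earlier results of these data known. The level of Fkbp5 was 9.85 in WT and 3.67 in iKD (log2 ratio −1.42, −1.49 to −1.35), from 9700 and 2174 UMIs. The level of Ddit4 was 2.43 in WT and 0.869 in iKD (−1.48, −1.62 to −1.34). Both differences were far outside the counting error. Nfkbia, which holds NF-kB in the cytoplasm, was at 4.12 and 2.53 (−0.70), and Tsc22d3 at 4.55 and 3.11 (−0.55).

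Sgk1, Pik3r1, Per1 and Zfp36l2 made up the 8. Sgk1, a kinase that regulates ion channels, was at 9.53 in WT and 6.84 in iKD (−0.48), and Pik3r1, the regulatory subunit of PI3-kinase, at 8.69 and 6.73 (−0.37). Per1, a repressor of the circadian clock, was at 1.22 and 0.944 (−0.37), and Zfp36l2, which binds AU-rich mRNA, at 5.46 and 4.31 (−0.34). Smaller negative ratios were those of Tgfbr1 (−0.27), a TGF-beta receptor, Mt1 (−0.23), a metallothionein, and Txnip (−0.14), an inhibitor of thioredoxin. Dusp1, a phosphatase of MAP kinases, had a ratio of 0.08 and Bcl6, a transcriptional repressor, 0.01. Below the level, Hif3a had 194 UMIs in WT and 19 in iKD (ratio −2.29, −3.05 to −1.61), and Zbtb16, a zinc finger factor, 435 and 180 (−0.50).

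The receptor and its chaperones differed little. Nr3c1 was at 2.97 in WT and 3.18 in iKD (0.10), and of 8 genes of the receptor machinery that passed the level none was past the fold limit, with a median ratio of −0.06. The same held for heat shock genes, 8 of which passed the level with a median of −0.16 and none past the fold limit.

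Within male-scored IPC2 cells the glucocorticoid list had a median of −0.33, with 8 of 16 genes past the fold limit and lower and none higher. Of all genes 2.63% were lower and 1.75% higher. Fkbp5 was at 9.85 (9.65 to 10.1) in the 1067 WT cells and 2.92 (2.77 to 3.08) in the 616 iKD cells, and Ddit4 at 2.42 and 0.680. The median cell held 9.09 counts of Fkbp5 per 10000 UMIs in WT and 2.65 in iKD, and the upper quartile of iKD male-scored cells, 4.12, lay below the lower quartile of the WT cells, 6.14. After each cell was thinned to 4500 UMIs, Fkbp5 was found in 96.6% (95.3 to 97.6) of WT and 72.2% (68.4 to 75.7) of iKD male-scored cells, with 9 shallower cells of each left out. Without thinning the shares were 99.5% and 84.9%. In the cluster named Astrocytes the share was 20.9%.

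The female-scored cells of IPC2 did not show the lower level. In the 116 iKD female-scored cells, Fkbp5 was at 7.59 (7.03 to 8.18), Ddit4 at 1.87 (1.59 to 2.18) and Tsc22d3 at 3.97 (3.56 to 4.41), each above the interval in iKD male-scored cells. In the 9 WT female-scored cells, Fkbp5 was at 5.90 (4.19 to 8.06) from 39 UMIs and Ddit4 at 1.46 (0.667 to 2.77) from 9 UMIs. Xist in these 9 cells was at 6.06, against 11.2 in WT female-scored cells outside IPC2. Among iKD IPC2 cells, 7 of 17 glucocorticoid genes were past the fold limit and higher in female-scored than in male-scored cells and none lower, where of all 4065 genes 7.68% were higher and 6.57% lower. The median ratio over the list was 0.18, against 0.00 over all 4065 genes. IPC2 held only 3.18% of iKD female-scored cells, and these genes were among the genes clustered. The levels of its female-scored cells are therefore a description and no test.

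Male-scored cells outside IPC2 differed between the libraries in the same direction. There, male-scored cells had a Fkbp5 level of 8.35 in WT and 2.39 in iKD, and female-scored cells had 3.75 in WT and 3.77 in iKD. Within each group of library and sex, Fkbp5 was higher inside IPC2 than outside. The log2 ratio was 0.24 (0.19 to 0.29) in WT and 0.29 (0.16 to 0.42) in iKD male-scored cells. In iKD female-scored cells it was 1.01 (0.89 to 1.12). IPC2 took only 3.18% of iKD female-scored cells, and Fkbp5 was among the genes clustered. These ratios therefore describe the cluster and are no test. Ddit4 followed the same order, with ratios of 0.56, 0.74 and 1.30, and Tsc22d3 with 0.20, 0.50 and 0.82. With 5 pooled mice per library, the genotype and the mice, their handling and their sorting cannot be told apart.

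**Figure D4:**
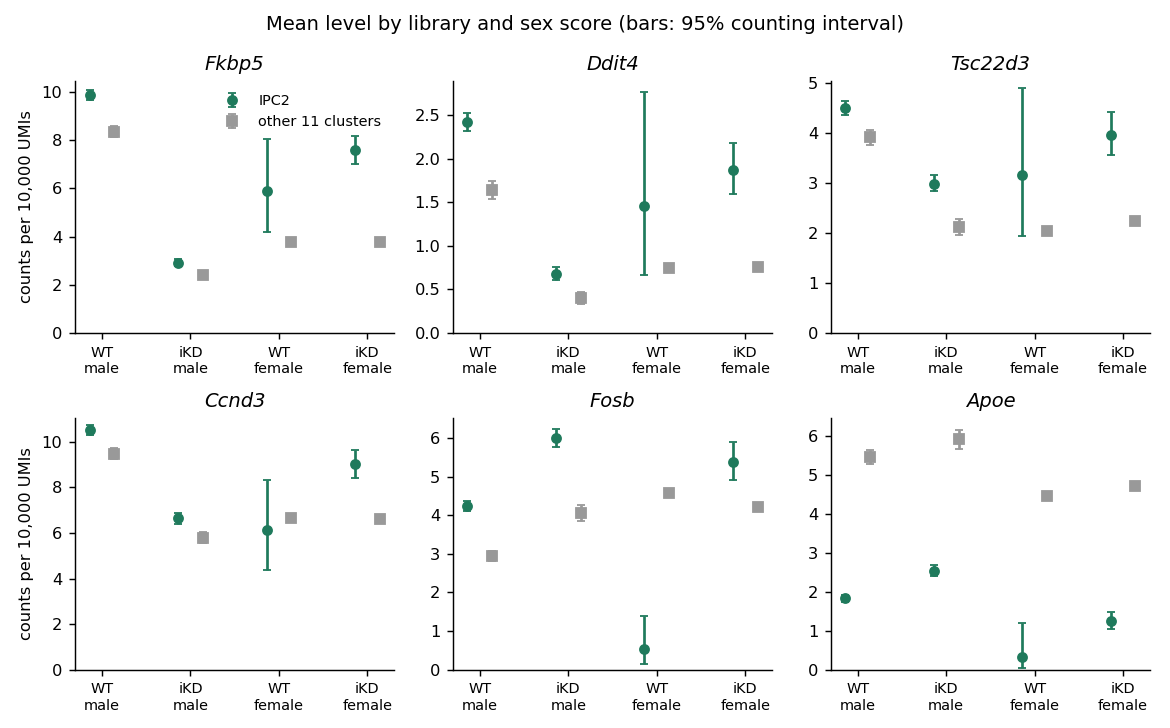
Mean level (counts per 10000 UMIs) of 6 genes in male-scored and female-scored cells of the WT and iKD libraries, inside IPC2 (circles) and in the other 11 clusters (squares), with 95% counting intervals. Fkbp5 in male-scored cells is at 9.85 and 8.35 in WT and at 2.92 and 2.39 in iKD, and Apoe is lower inside IPC2 in every group. WT female-scored IPC2 cells number 9.

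The promoters of the glucocorticoid list were searched for the palindrome to which the receptor binds. The motif was GNACA, any 3 bases and TGTNC, in which N is any base and which reads the same on both strands. The window was the bases upstream of each transcription start in the RefSeq promoter table (build GRCm38.p6). It was found in 156 of 32851 windows (0.475%), or 145 of 27025 genes (0.537%), and in 3 of the 20 listed genes with a window (15%). The 3 stretches below, of 61 bases each on the strand of the gene, show the match in capitals. They are at chr3:96557761-96557821 for Txnip, chr8:94178971-94179031 for Mt1 and chr10:21993678-21993738 for Sgk1.
Txnip: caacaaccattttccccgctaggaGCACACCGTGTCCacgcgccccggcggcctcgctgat
Mt1: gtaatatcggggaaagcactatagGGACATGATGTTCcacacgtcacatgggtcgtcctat
Sgk1: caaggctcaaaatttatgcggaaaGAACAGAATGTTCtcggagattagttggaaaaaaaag
Of these, Sgk1 was lower past the fold limit in iKD, whereas Txnip and Mt1 were not. A match describes the letters and not binding. Genes whose windows lacked it include Fkbp5 and Ddit4, which had the lowest ratios of the listed genes past the level. Sites outside these windows were not searched, so the lack of a match does not show that a gene has no site.

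Immediate early genes ran the other way, by less. Of 21 genes, 15 passed the level, with a median log2 ratio of 0.12 in iKD over WT and 11 above 0. The median over all genes was 0.01. Only Fosb, at 4.14 in WT and 5.93 in iKD (0.52, 0.45 to 0.58), and Fos, at 17.4 and 22.05 (0.34, 0.31 to 0.37), were past the fold limit. Of all genes 1.54% were higher past that limit. The partners of Fosb and Fos in AP-1 had smaller ratios, 0.23 for Jun (39.5 in WT, 46.2 in iKD) and 0.23 for Jund. Klf4 had a ratio of −0.06 and Btg2, an antiproliferative factor, −0.09. Within male-scored cells the median was 0.09, and the same 2 genes were past the fold limit, at 0.50 and 0.33. Of all genes 1.75% were higher there. Cells were dissociated before the libraries were made, and the part of dissociation in these levels was not tested.

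**Figure D5:**
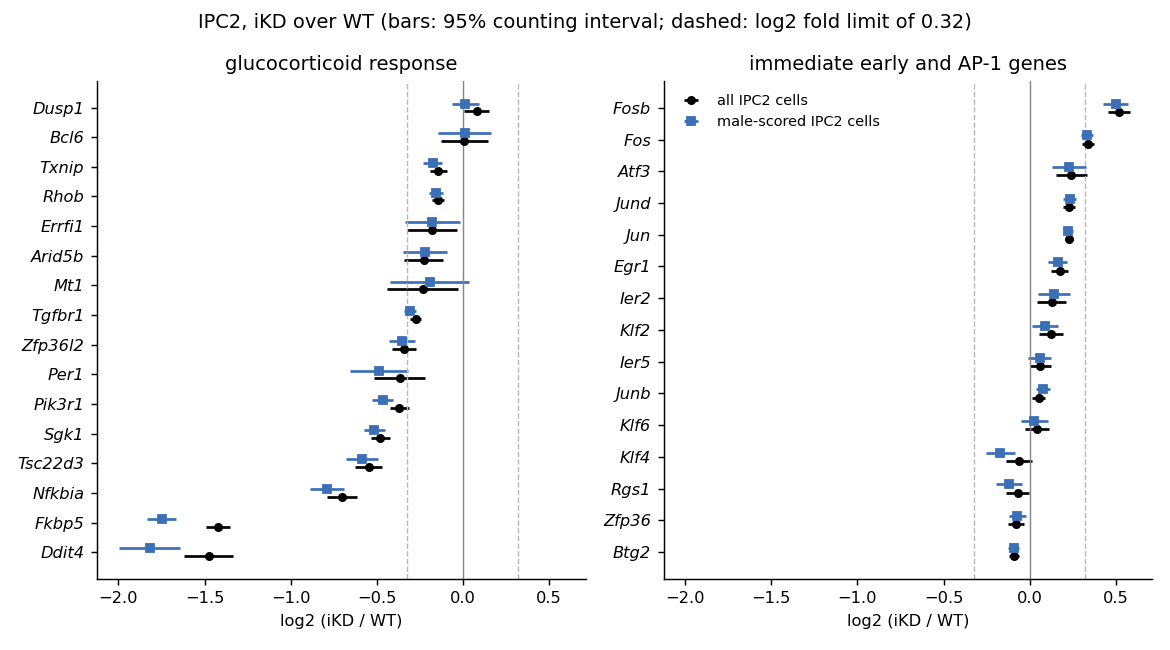
Log2 ratio of iKD over WT in IPC2 for the 16 glucocorticoid response genes (left) and 15 immediate early and AP-1 genes (right) past the level, in all IPC2 cells (circles) and in male-scored cells (squares), with 95% counting intervals and dashed lines at the fold limit. Ddit4 and Fkbp5 lie lowest (−1.48 and −1.42), and Fosb highest (0.52).

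Of all genes past the level, Gm22146 had the lowest ratio, −2.30, from levels of 0.618 in WT and 0.117 in iKD. In GENCODE release M21 (GRCm38) it lies at chr17:28446861-28447148, on the strand opposite to Fkbp5 (chr17:28399094-28517527) and inside that gene, so its reads may not be separable from those of Fkbp5. Outside the lists, the next lowest were Id2 (1.22 in WT, 0.620 in iKD, ratio −0.96), an inhibitor of helix-loop-helix transcription factors, and Rnf169 (−0.86), a ubiquitin-binding protein of the DNA damage response. B4galt1, a galactosyltransferase, was at 6.30 and 3.57 (−0.82), followed by Eva1a (−0.77), Zc3h12c (−0.75) and Mlxip (−0.68). Cebpb, a myeloid transcription factor, was at 3.01 and 1.89 (−0.67), and Slc1a3 at 5.32 and 3.59 (−0.57).

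The cyclin Ccnd3 was at 10.5 in WT and 6.99 in iKD (−0.59, −0.64 to −0.54). The ratio of its kinase partner Cdk6 was 0.09 and that of the related cyclin Ccnd1 0.21. Of 5 genes of this list past the level only Ccnd3 was past the fold limit, where 2.43% of all genes were lower. Within male-scored cells the ratio of Ccnd3 was −0.66.

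The largest ratios in the other direction belonged to Ttr, at 0.142 in WT and 9.87 in iKD (6.02), and to Xist (3.64). Ttr was found in 99.7% of male-scored iKD and 10.3% of male-scored WT IPC2 cells, and the 8 choroid plexus markers had a summed level of 0.153 in WT and 10.2 in iKD IPC2 cells. In the cluster named Astrocytes, 130 of whose 134 cells were from iKD, their summed level was 1081. Adamts1, a secreted protease, was at 0.777 and 1.36 (0.80), and within male-scored cells at a ratio of 0.76. Zswim4 (0.67), Sncaip (0.63), Gm26887 (0.63), Upp2 (0.62) and Mid1 (0.59), a ubiquitin ligase of microtubules, followed. Hhex, a homeobox factor, was at 0.883 and 1.247 (0.49).

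None of the 18 microglia markers was past the fold limit between genotypes, with ratios from −0.11 to 0.13. Of 13 microglia transcription factors past the level only Cebpb (−0.67) and Hhex (0.49) were past it, where 2.43% of all genes were lower and 1.54% higher. No gene among 12 of phagocytosis and the lysosome, 16 of the cytosolic ribosome and 11 of glycolysis was past the fold limit. Apoe was at 1.77 in WT and 2.27 in iKD (0.35), Ccl4 at 1.03 and 0.655 (−0.64) and Il1a, a cytokine, at 0.657 and 0.849 (0.36). The study listed 6 measured genes as cell-substrate junction genes from these same samples, so they are no independent evidence. Of these, 5 passed the level and 2 were lower past the fold limit, Ptk2b (−0.47), a focal adhesion kinase, and Pik3r1. Their median was −0.29, and within male-scored cells 3 of 5 were lower past the fold limit. Of all genes 2.43% were lower, and 2.63% within male-scored cells. The remaining gene, Enpp2, also a choroid plexus marker, was below the level. It went the other way, found in 0.769% of WT and 16.6% of iKD IPC2 cells.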

How the data were processed

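Gene expression was measured in EYFP+ cells of 1 WT and 1 iKD library. The authors deposited natural log values, 1 table per cluster, as the log of 1 plus counts per 10000 UMIs of the cell. The submitters' processing notes name Cell Ranger 7.0.1 and Seurat 4.1.1, and also CASAVA 1.8.2, HISAT2 2.0.6, Subread, featureCounts and the human build GRCh38, although the gene symbols are those of mouse. The methods state that cells were filtered on gene number and mitochondrial share, integrated and clustered. Clusters, names and genotypes were taken as deposited.

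UMI counts were recovered from the smallest step of each cell. Of 32261786 values above 0, 100% were whole within 0.01, in 10804 cells and 32285 genes, and 0 columns were left unused. No further cell filter and no doublet caller were applied. Ratios are log2 of mean levels with a pseudocount of 0.01, for genes whose level reached 0.5 on the higher side. Intervals are exact, at 95%, Poisson for UMIs and binomial for shares, and that of a ratio is the binomial interval of the summed counts. No count model was used, because each genotype has 1 library. The fold limit was a log2 ratio of 0.32. The ratio step was tested on simulated data. Python 3.11.15, numpy 2.4.6, scipy 1.17.1, pandas 2.3.3 and matplotlib 3.10.9 were used.

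The genes named are members of 34 gene lists, the 10 with the largest ratio in each direction of both comparisons, and the 5 most like Fkbp5 over the clusters. Members and lists were chosen with earlier results of these data known. Genes named from the same rankings within male-scored cells, and Kdm5d, were added to these. Promoters are from RefSeq (GRCm38.p6) and positions from GENCODE M21 (GRCm38), matched by symbol for 31424 genes. Overlapping genes could not be told apart where the counting did not use strand, which was not given in the sources used here. The values of a few genes are not reported here.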

Additional observations from a re-analysis of the deposited data

Results flagged for a closer look

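For 3 of the 22 genes followed, the counting intervals of the iKD over WT ratio in IPC2 lay on opposite sides of 0 in female-scored and male-scored cells. The log2 ratio of B4galt1 was 0.94 (0.17 to 1.83) in female-scored and −0.84 (−0.92 to −0.76) in male-scored cells. That of Ccnd3 was 0.56 (0.10 to 1.04) and −0.66 (−0.72 to −0.60), and that of Sgk1 was 0.75 (0.21 to 1.35) and −0.51 (−0.57 to −0.45). The female values rest on 9 WT cells and 116 iKD cells of 1 library each, and the difference between the sexes was not tested. A female score needed only 1 UMI of Xist and none of the Y-linked genes. In the 9 WT cells Xist was at 6.06, against 11.2 in WT female-scored cells outside IPC2 (log2 ratio −0.88, −1.39 to −0.42). In the 116 iKD cells Xist was at 11.1, against 11.4 in iKD female-scored cells outside IPC2. Whether all 9 WT cells came from female mice was not tested.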

How the results depend on the processing

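The genotype counts of 61 higher and 96 lower genes stayed within 1.5 times under summed UMIs scaled to the library, pseudocounts of 0.1 and 0.001, totals counted without mitochondrial and sex-linked genes and Ttr, centring, male-scored cells, and after leaving out cells under 2000 genes or the top 5% by gene number. Female-scored cells alone, with 9 WT cells, gave 1255 and 1779, the mean of both sexes 778 and 525, a level of at least 1 gave 27 and 62, and no filter other than 3 UMIs gave 1736 and 1847. Thinning to 4500 UMIs gave 92 higher. The glucocorticoid median of −0.31 was 0.23 in female-scored cells and −0.16 as the mean of both sexes, and the immediate early median of 0.12 was 0.30 and 0.22. In female-scored cells the ratios turned sign for Fkbp5 (0.36), Ddit4 (0.36), Tsc22d3 (0.32), Sgk1 (0.75), Cebpb (0.61), Ccnd3 (0.56), B4galt1 (0.94), Slc1a3 (0.12), Pik3r1 (0.14), Ccl4 (0.55) and Ptk2b (1.004). As the mean of both sexes they turned for Sgk1 (0.12), B4galt1 (0.052), Ccl4 (0.0064) and Ptk2b (0.21). The cause was not tested.

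The 64 higher and 86 lower genes against the other clusters became 300 and 563 with 11 clusters weighted equally, 36 and 35 against the 3 nearest clusters, and 292 and 235 in female-scored cells. WT cells alone gave 109 and 45, iKD cells 146 lower, a level of at least 1 gave 43 lower, and leaving out astrocytes, IN1, IN2 and undefined cells 30 lower. No paired analysis was possible because each genotype has 1 library and no replicate number pairs them, and no replicate could be left out. A gene with 0 UMIs in IPC2 could not be told from one below 3 UMIs.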
